A study of Mus musculus with 16 samples.

Results

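Prostaglandin E2 is a lipid mediator, and 8 genes that make it, sense it or break it down were followed here through tumours and sorted T cells of mice given mannose. They are Ptgs1, Ptgs2, Ptges, Ptges2, Ptges3, Ptger2, Ptger4 and Hpgd, found by gene symbol among the 53112 symbols of the tumour tables and the 55290 of the CD8 tables, and all 8 were present in all 16 libraries. The libraries are bulk RNA sequencing of mouse HM1 tumours, a transplantable ovarian cancer model, under a series title that concerns mannose and anti-PD-1 therapy. Whole tumour tissue gave 5 libraries labelled Mannose and 5 labelled Control, and CD8 T cells from tumours gave 3 labelled Mannose and 3 labelled Control. No antibody, dose, route, strain, sex, age or sort gate is named in the labels, and nothing there ties a replicate to an animal, so the p-values measure the spread between these libraries, which may be partly technical. Values are TPM, a transcript level scaled for length and to a common total in each library.

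Prostaglandin E2 is made in steps. Phospholipases free arachidonic acid from membranes, a cyclooxygenase turns it into prostaglandin H2, and a terminal synthase isomerises that to prostaglandin E2. Ptgs1 encodes the largely constitutive cyclooxygenase COX-1 and Ptgs2 the inducible COX-2, which inflammatory signals such as interleukin-1 switch on in macrophages, fibroblasts and carcinoma cells. Ptges encodes the inducible membrane-bound synthase that works with COX-2. Ptger2 and Ptger4 encode the EP2 and EP4 receptors, which raise cyclic AMP and on T cells are known to dampen activation, and Hpgd encodes the dehydrogenase that inactivates the mediator.

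The DNA before the start of Ptgs2 and Ptges is shown because these are the inducible pair of the pathway and the members with the largest differences in the CD8 libraries. Each run is the 250 bases before the start annotated by RefSeq on GRCm38.p6, read 5′ to 3′ along the gene, and all 8 members had a window in the RefSeq table. Capitals mark GGGCGG, a letter string of Sp1 sites, and TTGCGCAA, one of C/EBP sites. The 30-base run is the stretch after the Ptgs2 start, in which capitals mark CGTCA, the reverse complement of TGACG, the shorter form of the cyclic AMP response element.
Ptgs2, chr1:150099781-150100030, plus strand: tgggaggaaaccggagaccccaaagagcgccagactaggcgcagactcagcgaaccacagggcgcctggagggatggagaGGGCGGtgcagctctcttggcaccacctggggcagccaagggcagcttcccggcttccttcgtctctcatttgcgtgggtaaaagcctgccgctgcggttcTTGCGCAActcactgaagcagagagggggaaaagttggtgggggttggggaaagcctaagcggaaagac
Ptgs2, chr1:150100031-150100060, plus strand: agagtcaccactaCGTCAcgtggagtccgc
Ptges, chr2:30903298-30903547, minus strand: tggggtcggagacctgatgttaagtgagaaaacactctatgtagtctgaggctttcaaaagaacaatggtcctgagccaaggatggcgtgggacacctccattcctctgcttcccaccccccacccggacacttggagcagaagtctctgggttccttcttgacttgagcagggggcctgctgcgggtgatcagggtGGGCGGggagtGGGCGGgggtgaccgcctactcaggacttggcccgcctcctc
The Ptgs2 window held TTGCGCAA beginning at -69 and GGGCGG at -170 from the start, with CGTCA at 14 bases after it. Of 32851 RefSeq windows of 300 bases, searched on both strands, 0.183% held TTGCGCAA, 35.7% held GGGCGG and 20.8% held TGACG. Ptges held GGGCGG at -53 and -42. Also searched were the TATA box TATAAA, the full cyclic AMP response element TGACGTCA, which contains TGACG, and NF-kB sites as GGGACTTTC, as GGGAATTTC or as GGGAATTCC. None of the searched strings was found in the windows of Ptgs1, Ptges2 and Ptger2, and the full element and the NF-kB strings were found in none of the 8 windows. A match is a description of the letters and not a site, and DNA outside these windows was not searched.

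Some libraries need naming before the results. The tables of the 3 CD8 libraries labelled Control carry a mannose name over their values, and the label was taken as right. CD8 mannose 1 and 2 had nearly the same T cell receptor beta chain repertoire, with a correlation of 0.995 over the TPM shares of 35 V segments, and CD8 control 1 and 2 likewise, with 0.999. The other pairs of CD8 libraries had correlations between 0.267 and 0.763. CD8 results are therefore given also with each like pair averaged into 1 library. Among the tumours, mannose 3 had a mean correlation with the other tumours of 0.960 and control 1 of 0.947, the lowest of the 10.

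The CD8 libraries held RNA of several cell types, in amounts that differed between the groups. T cell markers summed to 3419 ± 1164 TPM in CD8 mannose and 4895 ± 194 TPM in CD8 control libraries (SD, n = 3 each), with 3 of 10 markers lower in mannose and none higher. Macrophage and monocyte markers summed to between 1180 and 1528 TPM in CD8 mannose and between 4156 and 4446 TPM in CD8 control libraries, with 13 of 14 lower in mannose. The same markers summed to between 2240 and 4617 TPM in tumour mannose and between 1665 and 2933 TPM in tumour control libraries. The CD8 control libraries thus held more macrophage marker RNA per total than every control tumour. Carcinoma markers summed to between 1636 and 2506 TPM in CD8 mannose and between 240 and 537 TPM in CD8 control libraries. Of the 6 carcinoma markers tested, 5 were higher in mannose and Cdh1 was lower, and Muc16 was at 0 in every library. Neutrophil markers were lower in mannose for 5 of 6, dendritic cell markers for 5 of 7, and fibroblast markers were higher for 7 of 10 and endothelial markers for 3 of 8. The 9 fibroblast markers other than Thy1, which mouse T cells also express, summed to 430.9 ± 102 TPM in CD8 mannose and 134.8 ± 63.8 TPM in CD8 control libraries (SD, n = 3 each). Of the other lists, 1 of 7 mast cell markers and 2 of 2 B cell markers were lower, and no NK cell or skeletal muscle marker passed. In the whole tumours no marker of any of the 11 lists passed the test. The part of these cell types in the results below was not tested except where a value is given.

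In the CD8 libraries, 3 of the 7 members tested differed between mannose and control, and they did not move the same way. Both cyclooxygenases were lower with mannose, Ptgs2 at 0.38 and Ptgs1 at 0.42 times control, while the synthase Ptges was 4.00 times control. These folds come from differences of log2(TPM + 1) tested with limma over 14280 genes with at least 1 TPM in 3 libraries, with Benjamini-Hochberg adjustment. Across all genes 34.9% passed at an adjusted p under 0.05, 23.2% as higher and 11.7% as lower, so 1 member higher and 2 lower of 7 is read against a background in which about as large a share of genes differed. The median difference was -0.30 for the 7 members and 0.09 for all genes. In the bulk RNA of either tissue, fewer cells of a type and less RNA per cell cannot be told apart.

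Among the 3 genes that passed, Ptgs2 had the smallest standard error. Ptgs2 had 78.5, 65.1 and 76.5 TPM in CD8 mannose libraries, against 199.6, 197.6 and 192.8 TPM in CD8 control libraries. All 3 mannose libraries lay below all 3 control libraries with a wide gap. The log2 difference was -1.41 (SE 0.09, limma adjusted p = 0.000244), and with the like pairs averaged it was -1.39 (limma adjusted p = 0.0109). Ptgs1 had 6.41, 5.59 and 4.25 TPM in CD8 mannose libraries, against 14.6, 15.0 and 12.5 TPM in CD8 control libraries. These groups did not overlap either. The log2 difference of Ptgs1 was -1.24 (SE 0.16, limma adjusted p = 0.00281), and -1.27 with the like pairs averaged (limma adjusted p = 0.0388).

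Both cyclooxygenase calls ended when the libraries were scaled to their T cell markers. Ptgs2 was then -0.73 (limma adjusted p = 0.0535) and Ptgs1 was -0.61 (limma adjusted p = 0.169), on a scale on which the median of all genes was 0.71 higher in mannose. Relative to that median Ptgs2 was -1.44 and Ptgs1 was -1.32, against -1.50 and -1.33 relative to the median without that scaling. Macrophage markers moved with both genes, so each was set against their summed level. Ptgs2 stood at 51.4, 55.2 and 64.8 TPM per 1000 TPM of macrophage markers in CD8 mannose libraries, against 44.9, 45.0 and 46.4 in CD8 control libraries. On that basis Ptgs2 was higher in each mannose library than in any control library. Per 1000 TPM of neutrophil markers Ptgs2 averaged 211.8 ± 65.9 TPM in CD8 mannose and 176.5 ± 21.1 TPM in CD8 control libraries, and per 1000 TPM of dendritic cell markers 643 ± 170 TPM in CD8 mannose and 768.2 ± 204 TPM in CD8 control libraries (SD, n = 3 each), with overlapping groups on both. The neutrophil sum was mostly Mmp9, at 212.8 of 365.4 TPM on average in CD8 mannose and 707.3 of 1124 TPM in CD8 control libraries. The dendritic cell sum was mostly Ccr7, at 86.7 of 120.2 TPM in CD8 mannose and 166.8 of 270.1 TPM in CD8 control libraries. Ccr7 itself did not pass (limma adjusted p = 0.115). Per 1000 TPM of macrophage markers Ptgs1 stood at 4.20, 4.74 and 3.60 TPM in CD8 mannose libraries, against 3.27, 3.41 and 3.01 in CD8 control libraries. Again all mannose values were above all control values. No test was made of these quotients. All 3 of these marker lists were lower in CD8 mannose libraries. Carcinoma markers went the other way, with a mean sum of 2097 TPM in CD8 mannose and 436 TPM in CD8 control libraries. So did the fibroblast markers other than Thy1, at 430.9 and 134.8 TPM. Neither cyclooxygenase was set against these, and the cell type behind their RNA was not tested.

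**Figure D1:**
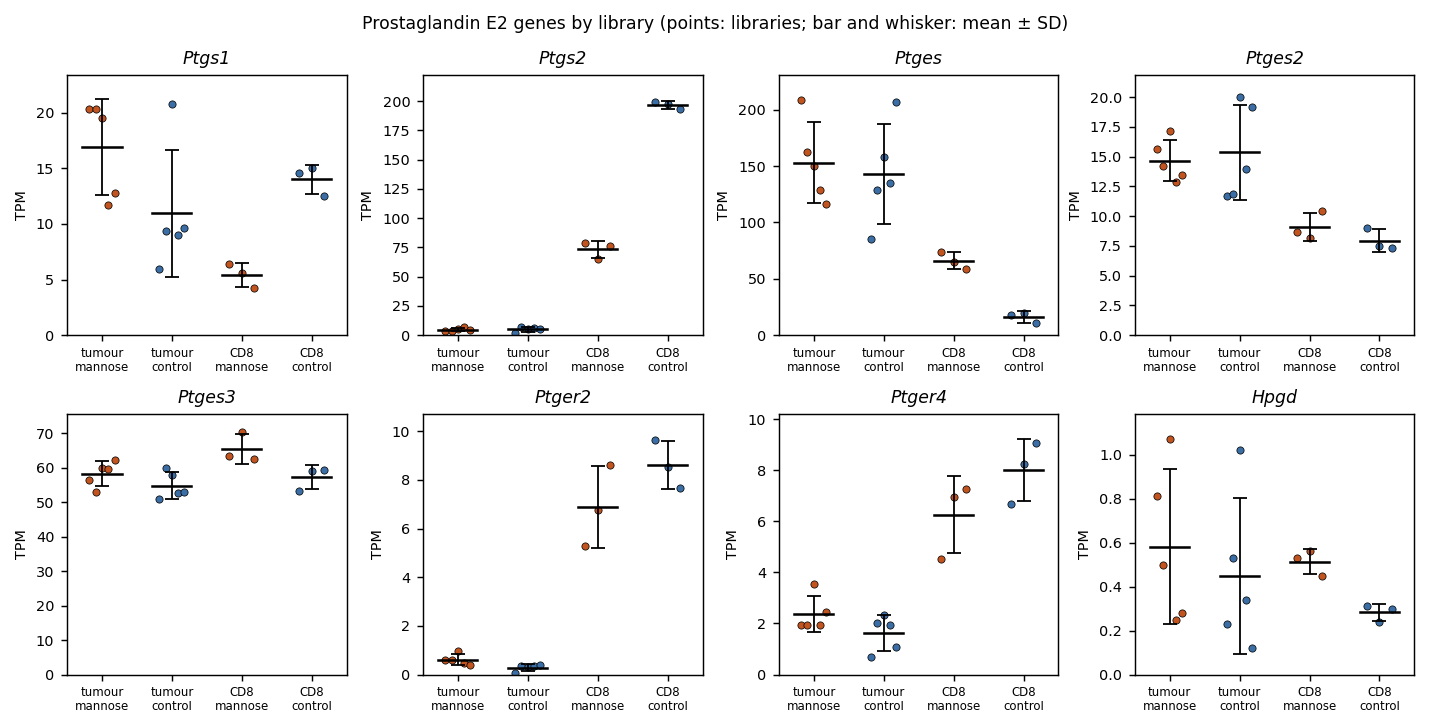
Level in TPM of each of the 8 genes, with a linear axis from 0, in tumour mannose, tumour control, CD8 mannose and CD8 control libraries from left to right. Points are libraries and bars with whiskers are mean ± SD (n = 5 per tumour group and 3 per CD8 group). Ptgs2 lay between 65.1 and 78.5 TPM in CD8 mannose and between 192.8 and 199.6 TPM in CD8 control libraries, against 6.88 TPM or less in every tumour.

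The terminal synthases differed from each other. Ptges had 73.9, 65.3 and 59.1 TPM in CD8 mannose libraries, against 18.0, 20.1 and 10.6 TPM in CD8 control libraries. Every mannose library was above every control library. The log2 difference was 2.00 (SE 0.23, limma adjusted p = 0.00187), and 2.09 with the like pairs averaged (limma adjusted p = 0.0322). Of the 6 carcinoma markers tested, 5 moved with Ptges and Cdh1 was lower. Of those below the filter, Krt7 and Wt1 averaged higher in CD8 mannose libraries and Epcam, Cldn7 and Pax8 lower, all under 1 TPM. Most of the carcinoma sum was Krt8, Krt18 and Krt19. They averaged 875.9, 622.0 and 547.8 TPM in CD8 mannose and 171.8, 127.1 and 101.2 TPM in CD8 control libraries. The fibroblast markers other than Thy1 also summed higher in CD8 mannose libraries, at 430.9 against 134.8 TPM, and 3 of 8 endothelial markers were higher. Ptges was set against the carcinoma markers only, and the cell type behind its RNA was not tested. Per 1000 TPM of carcinoma markers, Ptges stood at 29.5, 30.4 and 36.1 TPM in CD8 mannose libraries and at 33.4, 37.8 and 44.2 TPM in CD8 control libraries. On that basis the groups overlapped and the mean of the mannose libraries was below that of the controls, at 32.0 ± 3.61 against 38.5 ± 5.41 (SD, n = 3 each). The whole tumours had 42.6 ± 7.07 in mannose and 33.5 ± 7.84 in control on the same basis (SD, n = 5 each).

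Ptges2 encodes a membrane-associated synthase that is not induced with COX-2, and Ptges3 encodes the cytosolic synthase also known as the HSP90 co-chaperone p23. Ptges2 had 8.68, 8.20 and 10.4 TPM in CD8 mannose libraries, against 9.02, 7.48 and 7.33 TPM in CD8 control libraries. The groups overlapped, and the difference of 0.17 (95% interval -0.17 to 0.52, limma adjusted p = 0.389) did not pass. Ptges3 had 63.2, 70.3 and 62.4 TPM in CD8 mannose libraries, against 53.3, 58.9 and 59.4 TPM in CD8 control libraries. These groups did not overlap, yet the difference of 0.19 (95% interval -0.02 to 0.40, limma adjusted p = 0.142) did not pass. The Ptges3 value is uncertain, because a processed copy, Ptges3-ps, was listed at 38.1, 45.6 and 44.2 TPM in CD8 mannose and at 35.3, 27.5 and 20.2 TPM in CD8 control libraries, but at 0 in all tumours except mannose 5, at 1.64 TPM. Reads that fit both copies may have been divided between them differently in tumour and CD8 tables. Ptges3 and its copy together had 101.28, 115.96 and 106.65 TPM in CD8 mannose and 88.55, 86.45 and 79.64 TPM in CD8 control libraries. These groups did not overlap, and their difference was not tested.

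The receptors were present in the CD8 libraries, with lower means in mannose that did not pass. Ptger2 had 5.28, 6.78 and 8.62 TPM in CD8 mannose libraries, against 9.63, 8.52 and 7.65 TPM in CD8 control libraries. Ptger4 had 4.52, 6.96 and 7.28 TPM in CD8 mannose libraries, against 6.67, 8.25 and 9.05 TPM in CD8 control libraries. Both receptors overlapped between the groups. The log2 difference was -0.30 for Ptger2 (95% interval -0.74 to 0.14, limma adjusted p = 0.255) and -0.32 for Ptger4 (95% interval -0.80 to 0.15, limma adjusted p = 0.254), and neither passed. Scaling to T cell markers gave 0.31 for Ptger2 and 0.27 for Ptger4, but relative to the median of all genes Ptger2 was -0.40 with that scaling and -0.39 without it, and Ptger4 was -0.43 and -0.41. Per 1000 TPM of T cell markers, Ptger2 stood at 2.06 ± 0.20 TPM in CD8 mannose and 1.76 ± 0.23 in CD8 control libraries, and Ptger4 at 1.88 ± 0.35 TPM in CD8 mannose and 1.63 ± 0.24 TPM in CD8 control libraries (SD, n = 3 each). On the same basis Ptger2 had 16.3 ± 6.67 TPM in tumour mannose and 10.4 ± 6.03 TPM in tumour control libraries. Ptger4 had 66.0 ± 29.0 TPM in tumour mannose and 67.6 ± 34.5 TPM in tumour control libraries (SD, n = 5 each). Neither receptor was set against other markers, and the cell type behind their RNA was not tested. In the GENCODE M21 annotation Ptger4 overlaps Ttc33 on the opposite strand, which had 17.3 to 22.4 TPM in CD8 mannose and 13.6 to 20.6 TPM in CD8 control libraries, and Ptger2 overlaps the antisense gene Gm17173, at 2.55 to 3.33 TPM in CD8 mannose and 1.25 to 5.61 TPM in CD8 control libraries. Whether the counting used strand is not given in the sources used here, so reads of these partners cannot be told apart from the receptors'.

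Hpgd, which encodes the inactivating dehydrogenase, was near the lower end of detection. It had 0.53, 0.56 and 0.45 TPM in CD8 mannose libraries, against 0.31, 0.24 and 0.30 TPM in CD8 control libraries. The groups did not overlap, but every value was below the 1 TPM filter and the gene was not tested. Over all 8 members, the 2 groups did not overlap for 5 genes, Ptgs1, Ptgs2, Ptges, Ptges3 and Hpgd, where 51.4% of all genes tested did not overlap. That share leaves out genes below the filter, of which Hpgd was one. TPM values carry no read totals, so the depth behind these low values is unknown.

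**Figure D2:**
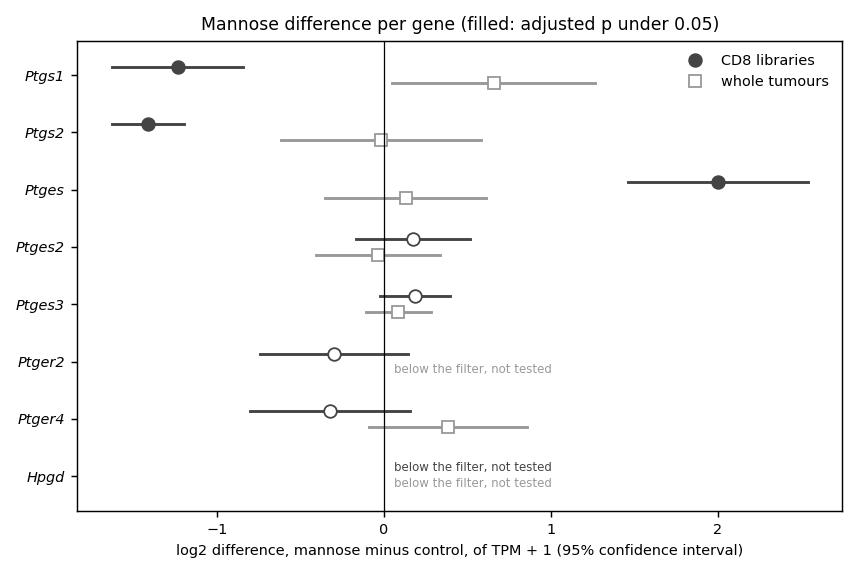
Log2 difference of TPM + 1, mannose minus control, for each gene in CD8 libraries (circles) and whole tumours (squares), with 95% confidence intervals from limma. Filled symbols passed at an adjusted p under 0.05. Only Ptgs1, Ptgs2 and Ptges in CD8 libraries are filled, at -1.24, -1.41 and 2.00. Genes below the filter are named as not tested.

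Whole tumours gave another picture. Of the 6 members tested in them, none passed, and neither did any of the 13282 genes tested (0%), of which 827 had an unadjusted limma p under 0.05. The median difference was 0.11 for the 6 members and 0.12 for all genes. Ptges was the most abundant member, with 208.1, 162.7, 149.7, 128.8 and 116.1 TPM in tumour mannose libraries and 85.3, 128.6, 157.9, 134.7 and 206.6 TPM in tumour control libraries. The groups overlapped widely. The log2 difference was 0.13 (95% interval -0.36 to 0.61, limma adjusted p = 0.891), and it was -0.04 without control 1 and mannose 3. Ptges held 60.4% ± 5.16 of the summed TPM of the 8 genes in tumour mannose and 60.8% ± 5.73 in tumour control libraries (SD, n = 5 each).

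The cyclooxygenases ranked the other way round in tumours from CD8 libraries. Ptgs1 had 20.4, 20.3, 19.5, 11.7 and 12.8 TPM in tumour mannose libraries, against 5.99, 9.33, 20.8, 9.02 and 9.65 TPM in tumour control libraries. Control 3, the highest of all 10, was the only control above the lowest mannose library. The log2 difference was 0.66 (SE 0.28, 95% interval 0.05 to 1.27), with an unadjusted limma p of 0.0362 and an adjusted p of 0.754, so it did not pass. Ptgs2 had 3.35, 3.79, 5.15, 6.88 and 4.47 TPM in tumour mannose libraries, against 1.80, 6.71, 5.02, 6.24 and 5.27 TPM in tumour control libraries. The groups overlapped throughout, with a log2 difference of -0.02 (95% interval -0.62 to 0.58, limma adjusted p = 0.987).

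In every tumour Ptgs1 stood above Ptgs2, and in every CD8 library Ptgs2 stood above Ptgs1. The log2 ratio of Ptgs2 + 1 to Ptgs1 + 1 TPM averaged 3.55 ± 0.30 in CD8 mannose and 3.72 ± 0.11 in CD8 control libraries (SD, n = 3 each). It averaged -1.64 ± 0.65 in tumour mannose and -0.97 ± 0.61 in tumour control libraries (SD, n = 5 each). In the tumours the difference of -0.68 had a 2-sided exact permutation p of 0.135, or 0.405 after adjustment over the 6 ratio tests, with a smallest possible p of 0.00794. In the CD8 libraries the difference of -0.18 had an exact permutation p of 0.4, with a smallest possible p of 0.1. The ratio of Ptgs2 to Hpgd averaged 5.62 ± 0.18 in CD8 mannose and 7.27 ± 0.05 in CD8 control libraries (SD, n = 3 each). Its groups did not overlap and its difference of -1.65 had the smallest p the design allows, an exact permutation p of 0.1, which cannot pass. Most of that difference is the Ptgs2 difference of -1.41 given above. Hpgd was below 1 TPM in every CD8 library, and its own difference of log2(TPM + 1) was 0.24. The other 3 ratios, Ptgs2 to Hpgd in tumours and Ptger4 to Ptger2 in both tissues, had exact permutation p-values from 0.691 to 1.

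The remaining members were even across the tumours or low in them. Ptges2 ranged from 12.9 to 17.2 TPM in tumour mannose, with a median of 14.2, and from 11.7 to 20 TPM in tumour control libraries, with a median of 13.99 (log2 difference -0.03, limma adjusted p = 0.963). Ptges3 was the steadiest member, from 53.0 to 62.3 TPM in mannose and from 50.9 to 59.8 TPM in control libraries (log2 difference 0.09, limma adjusted p = 0.814). Its coefficient of variation over the 10 tumours was 7.0%, against 40.9% for Ptgs1 and 66.1% for Hpgd.

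Ptger4 had 1.94, 1.92, 3.55, 1.92 and 2.43 TPM in tumour mannose libraries, against 0.68, 2.02, 2.35, 1.93 and 1.08 TPM in tumour control libraries. The groups overlapped and the log2 difference of 0.38 (95% interval -0.09 to 0.86, limma adjusted p = 0.754) did not pass. It was 0.12 without control 1 and mannose 3. Ptger2 had 0.58, 0.59, 0.98, 0.47 and 0.41 TPM in tumour mannose libraries, against 0.05, 0.36, 0.29, 0.36 and 0.38 TPM in tumour control libraries. Each mannose tumour was above each control tumour, the nearest being 0.41 TPM in mannose and 0.38 TPM in control, and the gene lay below the filter and was not tested. Ptger2 was the only member whose tumour groups did not overlap, where 1.63% of the genes tested did not. That share leaves out genes below the filter, of which Ptger2 was one. T cell markers summed to between 22.9 and 103.9 TPM in tumour mannose and between 7.74 and 54.4 TPM in tumour control libraries. Control 1 was lowest and mannose 3 highest, as for Ptger2, but the order between them differed. Control 5 had 54.4 TPM of T cell markers and 0.38 TPM of Ptger2, while mannose 2 had 22.9 TPM and 0.59 TPM. The part of T cell RNA in the Ptger2 values was not tested. Hpgd had 0.81, 0.50, 1.07, 0.25 and 0.28 TPM in tumour mannose libraries, against 0.23, 0.53, 1.02, 0.34 and 0.12 TPM in tumour control libraries, and these overlapped.

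The mannose difference itself differed between CD8 libraries and tumours for the same 3 genes that passed in the CD8 libraries. In a fit of all 16 libraries, the CD8 difference minus the tumour difference was -1.90 for Ptgs1 (SE 0.40, limma adjusted p = 0.00403), -1.40 for Ptgs2 (SE 0.38, limma adjusted p = 0.0176) and 1.87 for Ptges (SE 0.36, limma adjusted p = 0.00202). Of the 15498 genes in that fit 18.7% passed, 11% as higher and 7.64% as lower, and 1 of the 7 members tested was higher and 2 were lower. The Ptgs2 call ended without CD8 mannose 2 (-1.31, limma adjusted p = 0.0541) and with the like pairs averaged (-1.37, limma adjusted p = 0.082). Those of Ptgs1 and Ptges did not end in either. Ptger2 at -0.61 (limma adjusted p = 0.0789), Ptger4 at -0.71 (limma adjusted p = 0.159), Ptges2 at 0.21 (limma adjusted p = 0.632) and Ptges3 at 0.10 (limma adjusted p = 0.653) did not pass.

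Levels in the tissues are set side by side only, since the tumour and CD8 tables were made with annotations of different size. Ptgs2 averaged 73.4 ± 7.23 TPM in CD8 mannose and 196.7 ± 3.48 TPM in CD8 control libraries (SD, n = 3 each), and 4.73 ± 1.38 TPM in tumour mannose and 5.01 ± 1.92 TPM in tumour control libraries (SD, n = 5 each). The tissues lay apart also per macrophage marker level. Per 1000 TPM of macrophage markers Ptgs2 averaged 57.1 ± 6.90 TPM in CD8 mannose and 45.4 ± 0.84 TPM in CD8 control libraries, against 1.72 ± 0.78 TPM in tumour mannose and 2.29 ± 0.86 TPM in tumour control libraries. Ptgs1 lay much closer on the same basis, at 4.18 ± 0.57 TPM in CD8 mannose and 3.23 ± 0.20 TPM in CD8 control libraries, and at 5.99 ± 1.76 TPM in tumour mannose and 4.82 ± 1.35 TPM in tumour control libraries. The order of the mean levels in CD8 control libraries ran Ptgs2, Ptges3, Ptges, Ptgs1, Ptger2, Ptger4, Ptges2 and Hpgd, in which Ptges and Ptgs1, and Ptger2, Ptger4 and Ptges2, overlapped between libraries. In tumour control libraries it ran Ptges, Ptges3, Ptges2, Ptgs1, Ptgs2, Ptger4, Hpgd and Ptger2, in which Ptges2 and Ptgs1, Ptgs1 and Ptgs2, Ptgs2 and Ptger4, Ptger4 and Hpgd, and Hpgd and Ptger2 overlapped.

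**Figure D3:**
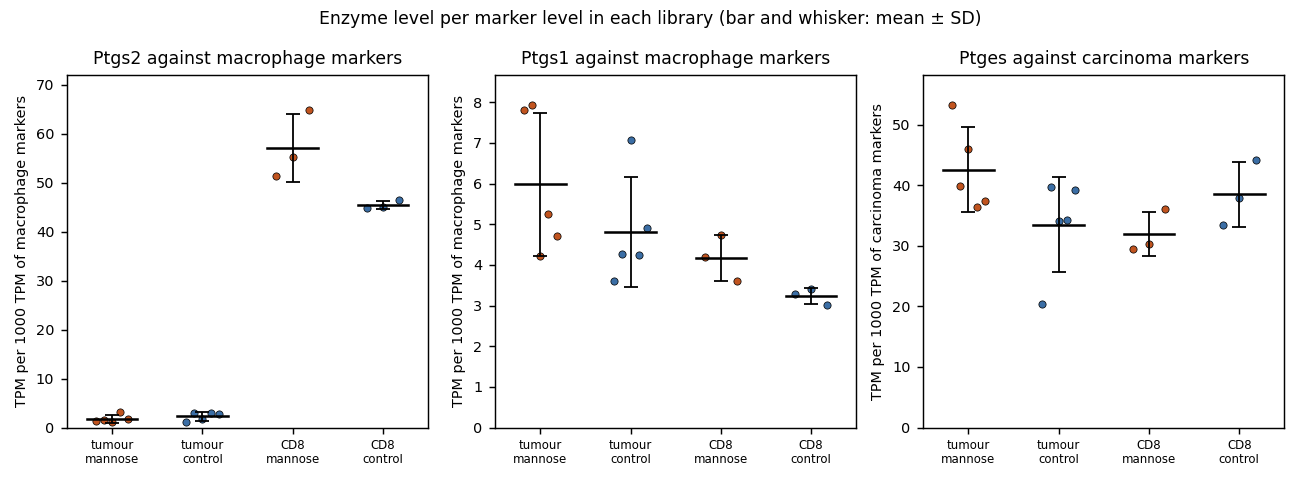
Level of Ptgs2 and Ptgs1 per 1000 TPM of summed macrophage markers, and of Ptges per 1000 TPM of summed carcinoma markers, on linear axes from 0. Points are libraries, bars and whiskers are mean ± SD (n = 5 per tumour group and 3 per CD8 group). Ptgs2 averaged 57.1 in CD8 mannose and 45.4 in CD8 control libraries, and Ptges averaged 32.0 in CD8 mannose and 38.5 in CD8 control libraries.

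The wider pathway was followed through 7 lists with 55 genes. In the CD8 libraries 48 were tested, of which 4 were higher and 19 lower with mannose. Averaging the like pairs left 12 calls, 1 higher and 11 lower. Scaling to T cell markers, with the median of all genes at 0.71, gave 10 higher and 8 lower, so the split depends on the scaling. Counts per list are read against the 23.2% of all genes that were higher and the 11.7% that were lower. In the whole tumours none of the 47 tested passed. Of the genes for arachidonate release and prostaglandin E2 transport, 2 of 7 tested were higher in CD8 mannose libraries and 1 was lower (median of the list 0.55, of all genes 0.09). Slco2a1, the transporter that takes prostaglandin E2 into cells, averaged 21.4 ± 6.02 TPM in CD8 mannose and 5.07 ± 1.88 TPM in CD8 control libraries (log2 difference 1.90, limma adjusted p = 0.00482). Pla2g6, a calcium-independent phospholipase, averaged 14.4 ± 2.38 TPM in CD8 mannose and 8.82 ± 0.57 TPM in CD8 control libraries (limma adjusted p = 0.0161). Pla2g7, which hydrolyses platelet-activating factor, averaged 52.4 ± 8.18 TPM in CD8 mannose and 107.5 ± 5.73 TPM in CD8 control libraries (log2 difference -1.03, limma adjusted p = 0.00211).

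The inducers and regulators of Ptgs2 had the most calls, with 8 of 11 lower in CD8 mannose libraries and none higher (median -0.57), where 11.7% of all genes were lower. Averaging the like pairs left 4 lower, and scaling to T cell markers left 3 lower and made 1 higher. Il1b, an interleukin-1 that induces COX-2, averaged 359.2 ± 52.9 TPM in CD8 mannose and 1903 ± 120 TPM in CD8 control libraries (log2 difference -2.41, limma adjusted p = 0.000203). Il1a averaged 36.3 ± 6.99 TPM in CD8 mannose and 188.5 ± 30.1 TPM in CD8 control libraries (limma adjusted p = 0.00031). Tnf, another inflammatory cytokine, averaged 15.4 ± 4.64 TPM in CD8 mannose and 59.4 ± 13.8 TPM in CD8 control libraries (limma adjusted p = 0.00232). Nfkb1, a subunit of the NF-kB factor that these cytokines activate, averaged 110.0 ± 1.98 TPM in CD8 mannose and 161.0 ± 14.6 TPM in CD8 control libraries (limma adjusted p = 0.00431). Macrophage markers, with 13 of 14 lower and a median of -1.86, moved in the same libraries, and their part in these differences was not tested.

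Sister branches that use the same fatty acid also had more genes lower than higher with mannose. In the leukotriene and lipoxygenase branch 4 of 7 genes were lower and none higher (median -1.05). Scaling to T cell markers left 3 lower in that branch, and gave 1 higher and 1 lower among the other prostanoid genes below. Alox5ap, the helper protein of 5-lipoxygenase, averaged 21.6 ± 3.74 TPM in CD8 mannose and 94.0 ± 3.75 TPM in CD8 control libraries (log2 difference -2.08, limma adjusted p = 0.000251). Ltb4r1, the leukotriene B4 receptor, averaged 5.21 ± 2.18 TPM in CD8 mannose and 34.5 ± 5.85 TPM in CD8 control libraries (log2 difference -2.56, limma adjusted p = 0.00124). Cysltr1, a receptor for cysteinyl leukotrienes, averaged 2.66 ± 0.50 TPM in CD8 mannose and 11.2 ± 0.59 TPM in CD8 control libraries (limma adjusted p = 0.000813). Among the other prostanoid synthases and receptors 3 of 5 were lower (median -0.58), and 1 with the like pairs averaged, led by Tbxas1, thromboxane synthase, at 6.82 ± 1.09 TPM in CD8 mannose and 26.7 ± 3.12 TPM in CD8 control libraries (limma adjusted p = 0.000544).

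Downstream of the EP2 and EP4 receptors, 1 of 13 genes of the cyclic AMP pathway was higher in CD8 mannose libraries and 3 were lower (median -0.12), a share near the 34.9% called over all genes. Averaging the like pairs left none higher and 2 lower, and scaling to T cell markers gave 3 higher and 1 lower. Crem, a transcription factor gene that cyclic AMP induces, averaged 152.1 ± 37.4 TPM in CD8 mannose and 293.4 ± 45.4 TPM in CD8 control libraries (limma adjusted p = 0.00887). Pde4b, a cyclic AMP phosphodiesterase, averaged 38.2 ± 7.50 TPM in CD8 mannose and 88.1 ± 3.32 TPM in CD8 control libraries (limma adjusted p = 0.00201), and Nr4a3, a nuclear receptor gene, 30.02 ± 13.4 TPM in CD8 mannose and 78.5 ± 9.91 TPM in CD8 control libraries (limma adjusted p = 0.00981). Pde4a, a related phosphodiesterase, went the other way, at 11.96 ± 1.26 TPM in CD8 mannose and 5.54 ± 0.94 TPM in CD8 control libraries (limma adjusted p = 0.00454). Of the 4 prostaglandin reductases 1 was higher (median 0.00), Ptgr2, at 25.5 ± 2.90 TPM in CD8 mannose and 16.1 ± 2.86 TPM in CD8 control libraries (limma adjusted p = 0.0201). Of the receptors not among the 8 genes, Ptger1 averaged 2.11 ± 0.28 TPM in CD8 mannose and 2.30 ± 0.28 TPM in CD8 control libraries (limma adjusted p = 0.706), and Ptger3 averaged 0.05 TPM in both groups and was not tested. Of the list genes named, the calls of Pla2g6, Nr4a3, Pde4a and Ptgr2 ended with the like pairs averaged, and those of Pla2g7, Nfkb1, Crem and Pde4b ended with scaling to T cell markers.

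**Figure D4:**
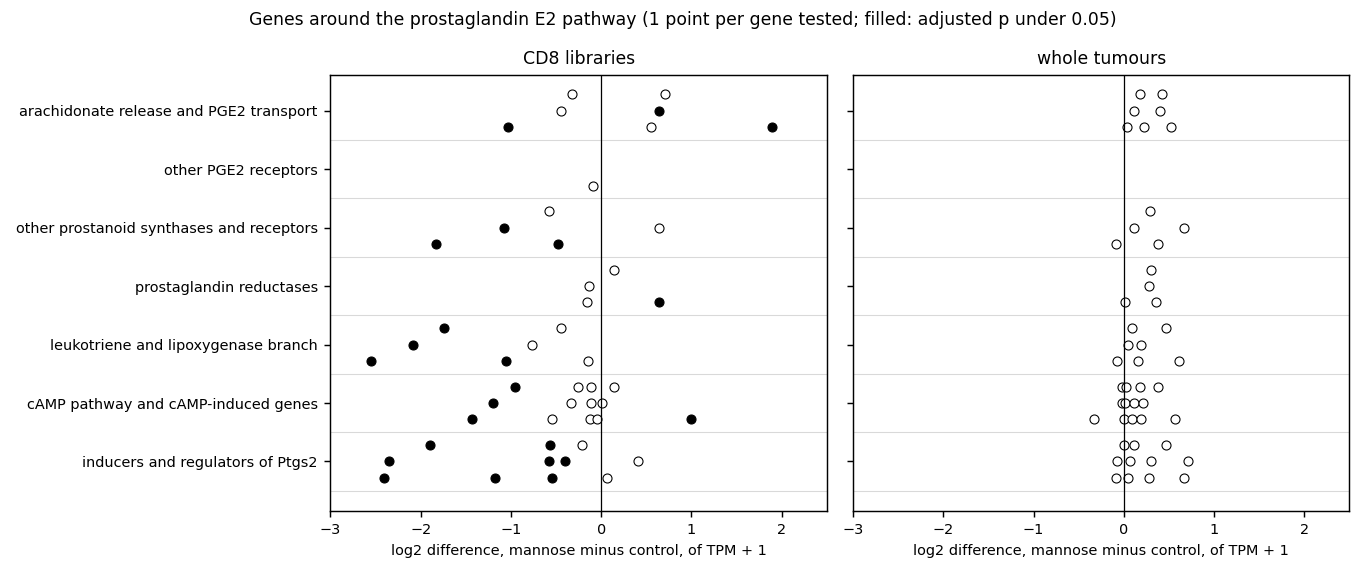
Log2 difference of TPM + 1, mannose minus control, for every gene tested in the 7 pathway lists, in CD8 libraries (left panel) and whole tumours (right panel). Each point is a gene, placed by list, with vertical offsets within a list for legibility and filled points for an adjusted p under 0.05. The CD8 panel has 4 filled points above 0 and 19 below, and the tumour panel has none.

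Across the 10 tumours, the genes whose log2 levels followed each member most closely were sought among 9423 genes with a mean of at least 5 TPM. Nfkbia, an inhibitor of NF-kB, was among the 3 that followed Ptgs1 most closely, with a Pearson r of 0.957 (Spearman rho 0.988), and r was 0.935 without the 2 tumours farthest from the Ptgs1 median. Ttc39c was also among them, at 0.943. Over the 6 CD8 libraries r with Ptgs1 was 0.77 for Nfkbia and 0.84 for Ttc39c. For Ptgs2 the closest were Slc25a30 at 0.945 (rho 0.976, and 0.907 without the 2 farthest tumours), Dnah2os at 0.938 and Dusp16 at 0.929. Without those 2 tumours r was 0.877 for Dnah2os and 0.749 for Dusp16. In the 6 CD8 libraries r with Ptgs2 was -0.64 for Slc25a30, -0.92 for Dnah2os and 0.985 for Dusp16. For Ptges they were Rusc2 at 0.986 (rho 0.976, and 0.974 without the 2 farthest tumours), Efl1 at 0.983 and Sema7a at 0.980. Their r with Ptges over the 6 CD8 libraries was 0.43, 0.97 and 0.98. Ptger4 was followed by Lox, lysyl oxidase, at 0.978 (rho 0.875, and 0.925 without the 2 farthest tumours), Micu2 and Kctd12. Their r with Ptger4 over the 6 CD8 libraries was -0.75, 0.85 and 0.68. Ptges2 was followed by Lrch4, Gsk3a and Rhog, from 0.974 down to 0.962, and Ptges3 by Yipf5, Tceal8 and Rmi1, from 0.932 down to 0.894. In the same order, r over the 6 CD8 libraries was -0.06, 0.51 and -0.41 with Ptges2, and -0.23, -0.51 and -0.14 with Ptges3. These are the highest values of a search over 10 libraries that share tissue composition, and they carry no test.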

How the data were processed

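Bulk RNA sequencing of 10 whole tumours and 6 CD8 libraries was deposited by the authors as 1 table per library of TPM values with 2 decimals; library sums lay between 993815 and 997809, which fixed the unit. Per the submitters' processing notes, fastp, HISAT and RSEM were used with build GRCm39; versions and roles are not given in the sources used here. Read depth is unknown, so no counting interval is given; between 12345 and 14384 symbols reached 1 TPM per library. Entries with the same symbol were summed. Groups came from the labels.

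Differences were tested on log2(TPM + 1) by limma-trend (limma 3.58.1, R 4.3.3). Genes needed 1 TPM or more in 5 tumour or 3 CD8 libraries. Fits were made in each tissue separately and, for the interaction, in all 16 libraries, with Benjamini-Hochberg adjustment over all genes and a threshold of 0.05. The fit recovered planted changes in simulated data before use, with recovery required only for the largest of them. The simulated libraries were independent of each other, so this check does not cover the like CD8 pairs. The 3 ratios used 2-sided exact permutation tests. Named genes of a list are up to 4 with the smallest adjusted p that pass, where the mean reaches 5 TPM, and the markers of other cell types are given as sums. The members, lists and tests were chosen with earlier results of these data known. Alternatives were another pseudocount, no filter, quantile and median-ratio scaling, array weights, a replicate block, each library left out, like libraries averaged, scaling to T cell markers and 1 fit of all libraries. Replicate numbers did not pair the libraries: the correlation of same-numbered deviations from the group means ran from -0.40 to 0.20 in tumours and from 0.02 to 0.12 in CD8 libraries. Promoter windows and their GRCm38.p6 coordinates are from RefSeq; since the values follow another build, no gene coordinates are given for them. A gene that the likeness search returned is not reported here.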

Additional observations from a re-analysis of the deposited data

Results flagged for a closer look

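In the tumour control group Ptgs1 reached 20.8 TPM in control 3, far above the other 4 controls, which lay between 5.99 and 9.65 TPM. In the same group Ptger2 was at 0.05 TPM in control 1, far below the other 4, which lay between 0.29 and 0.38 TPM. The gap to the nearest library over the whole range was 0.752 for Ptgs1 and 0.727 for Ptger2, against a limit of 0.71 for 5 libraries. Each of the 8 genes was examined in both tumour groups, which made 16 sets of values from the same 10 libraries. Chance alone would flag about 1 in 20 of such sets.

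The mannose difference in CD8 libraries minus that in tumours was -1.90 for Ptgs1, -1.40 for Ptgs2 and 1.87 for Ptges on the log2 scale, each past the threshold of the interaction test (limma adjusted p = 0.00403, 0.0176 and 0.00202).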

How the results depend on the processing

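The count of members called in tumours was 0 under every alternative. In CD8 libraries it was 3, and 5 with array weights, which added Ptges3 and Ptger2; scaling to T cell markers gave 2, Ptges and Ptges3. Leaving out each library gave 3 each time. In the interaction it was 3, and 5 with quantile normalization, which added Ptger2 and Ptger4; median-ratio scaling and array weights gave 4, adding Ptger2, averaging the like pairs gave 2, and leaving out each library gave 2 to 4. The replicate block gave 0, 3 and 3 members in tumours, CD8 libraries and the interaction, with 4838 genes called in CD8 libraries against 4980 without it, and it changed no call of a member. Direction turned under some alternatives for values that did not pass as reported, of which Ptger2 in CD8 libraries passed with array weights: with T cell marker scaling, where the median of all genes was 0.71, 0.31 for Ptger2 and 0.27 for Ptger4 in CD8 libraries; with quantile normalization, -0.0464 for Ptges2 in CD8 libraries; with median-ratio scaling, -0.0131 for Ptges and -0.0549 for Ptges3 in tumours; with array weights, 0.0266 for Ptges2 in tumours; and -0.0392 for Ptges in tumours without control 1 and mannose 3. Leaving out 1 tumour gave -0.0399 to 0.277 for Ptges, -0.117 to 0.0646 for Ptges2 and -0.274 to 0.0914 for Ptgs2. The ratio of Ptger4 to Ptger2 in tumours was -0.33 with a pseudocount of 0.1 and -0.0123 with 0.5, and leaving out 1 library gave -0.0291 to 0.167 in tumours and -0.21 to 0.13 in CD8 libraries. The cause of these turns was not tested.

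In CD8 libraries 3306 genes were higher and 1674 lower; the split was 2673 and 2305 with quantile normalization, 2597 and 2529 with median-ratio scaling and 5763 and 367 with T cell marker scaling. The genes called were 8631 with array weights and 1652 with like pairs averaged, and the pathway genes called were 36 with array weights and 12 with like pairs averaged, counts added after seeing the data. The interaction calls were 2896, and 6323 with array weights. The median of all tumour genes was 0.12 higher in mannose, and -0.01 with median-ratio scaling. Ptges in CD8 libraries passed under every alternative, from 1.74 to 2.66, and Ptgs1 and Ptgs2 under every one but T cell marker scaling.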
